A study of Mus musculus with 6 samples.

Results

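The protein part of the cytosolic ribosome was followed at the level of its messenger RNAs in primary neural stem cells, cells of the wall of the brain's lateral ventricles from which new neurons and glia arise. Genes were taken by symbol: all that begin with Rpl or Rps and a number, the stalk genes Rplp0 to Rplp2, and Rpsa, without pseudogene symbols and without the S6 kinases. This gave 88 of the 17006 genes listed. They comprise 46 core genes of the large subunit, 31 core genes of the small subunit, 10 paralog copies and Rps19bp1, which binds a ribosomal protein but is not part of the ribosome.

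Cells from C57BL/6 mice of 15 to 18 months (aged, 3 libraries) were compared with cells from C57BL/6 mice of 2 months (young, 3 libraries). For both ages the labels describe tissue of 5 pooled mice, culture in proliferation medium and 1 ug of rRNA-depleted total RNA. The libraries therefore describe cultured cells, and nothing in the labels says whether the 3 libraries of an age came from separate pools, so the spread between them may be technical. Markers of neural stem and progenitor cells were high in all 6 libraries: Fabp7 lay at 2662 to 2878 FPKM, Vim at 1522 to 1688 FPKM and Sox2 at 165 to 186 FPKM. Of 8 such markers, 4 were higher and 2 lower in aged libraries without overlap, where 8.98% and 8.58% of all genes tested were. The lower ones were Vim (means 1532 and 1659 FPKM in aged and young libraries, limma adjusted p = 0.0608) and Nes (limma adjusted p = 0.379). Markers of other cells were low but not all absent. Among microglial markers Ptprc stayed at 0.04 FPKM or less and Cd68 lay at 2.22 to 3.69 FPKM, the endothelial marker Pecam1 stayed at 0.17 FPKM or less, and the ependymal marker Foxj1 lay at 8.49 to 12.15 FPKM in aged and 10.8 to 12.7 FPKM in young libraries. Some differed with age, in both directions. Of the fibroblast and pericyte markers, Col1a1 rose, with a mean of 2.46 FPKM in aged and 0.423 FPKM in young libraries (limma adjusted p = 0.0107). Col1a2 (means 0.633 and 0.0133 FPKM) and Col3a1 (0.13 and 0.02 FPKM), both under the filter, were higher in every aged library. Dcn, in contrast, was listed at 0.1 FPKM in young 3 and at 0 elsewhere. Pdgfrb was listed at 0.03 FPKM in aged 2 and at 0 elsewhere. The neuronal markers Tubb3 (11.3 to 12.7 FPKM in aged, 8.83 to 10.4 FPKM in young libraries) and Snap25 (means 4.56 and 2.97 FPKM) did not overlap between the ages. Their limma adjusted p were 0.1397 and 0.181, and 8.98% of all genes tested were higher without overlap. Dcx, under the filter, was also higher in every aged library (means 0.653 and 0.35 FPKM). Rbfox3 (means 0.657 and 0.683 FPKM), Syt1 and Stmn2 overlapped between the ages. Lower in every aged library were the oligodendrocyte marker Cldn11 (means 4.26 and 5.47 FPKM in aged and young libraries, limma adjusted p = 0.313) and, under the filter, Mbp (0.357 and 0.743 FPKM). The endothelial marker Flt1, also under the filter, was lower in the same way (0.467 and 0.93 FPKM). The other oligodendrocyte and endothelial markers listed overlapped between the ages. The part of such cells in the results was not tested. FPKM is a count of fragments scaled to transcript length and to library size, so it can be set side by side between genes of unlike length. The depth was about 5180000 to 5360000 estimated reads per library.

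A ribosome carries a single copy of almost every one of its proteins. The large subunit joins amino acids, the small subunit reads the messenger RNA, and a stalk of P proteins on the large subunit recruits the elongation factors. Messenger RNAs of ribosomal proteins in vertebrates begin with a C and a run of pyrimidines, the 5′ terminal oligopyrimidine tract, through which the mTOR pathway and the repressor LARP1 set their translation together. In neural stem cells, the step out of quiescence is known for a rise in ribosome production.

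The shared start of these genes is shown in the windows below, 15 bases on each side of the start annotated by RefSeq (GRCm38.p6, the mm10 assembly), with the run of C and T letters in capitals. They were chosen for genes described later. Rps27 and Rps10 had the largest differences of their subunit, Rps6 is the substrate of the S6 kinases and Rps27l is a paralog copy. Rpl15 was higher in aged libraries without overlap, as were 7.79% of core genes and 8.98% of all genes tested. Rpl26 and Rpl36al are shown as members whose windows hold no such run, and so have no capitals.
Rps27 (chr3:90213634-90213663, minus strand): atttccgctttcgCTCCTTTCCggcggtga
Rps10 (chr17:27635230-27635259, minus strand): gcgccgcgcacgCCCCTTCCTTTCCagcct
Rps6 (chr4:86857353-86857382, minus strand): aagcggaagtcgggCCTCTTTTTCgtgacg
Rpl15 (chr14:18270972-18271001, minus strand): gtgggagaaagCCTTCTTCCTTTCCTCTgg
Rps27l (chr9:66946071-66946100, plus strand): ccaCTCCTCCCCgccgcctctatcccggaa
Rpl26 (chr11:68901551-68901580, plus strand): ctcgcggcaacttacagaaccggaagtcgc
Rpl36al (chr12:69184053-69184082, minus strand): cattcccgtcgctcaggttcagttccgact
RefSeq starts were at hand for 57 of the 77 core genes. In 33 of them (57.9%) the window held a C followed by at least 5 letters that are each C or T, on the strand of the gene, against 25.5% of 27025 genes in the same table. A gene was counted if any of its annotated starts held the run, which may lie before the start, as in the window of Rps27l, shown for 1 of its 2 starts. The letters CTTTCC, which can lie inside such a run, were in the window of 9 core genes (15.8%) and of 1.67% of all genes. The letters CCGGAAG or their reverse complement, which several ETS factors bind, stood between 250 bases before and 50 bases after the start in 24 core genes (42.1%) and in 9.93% of all genes. These are matches of letters and not measured sites.

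Ribosomal protein messages were among the most abundant of these cells. The core genes summed to 14.2, 13.4 and 14.2% of all FPKM in aged libraries 1 to 3, against 13.6, 13.8 and 13.7% in young libraries 1 to 3, and 53 of them stood among the 100 genes with the highest mean. The mean FPKM of a large subunit gene had a median of 692, with quartiles at 568 and 999.8. For the small subunit the median was 861 and the quartiles were 655 and 1064. In all, 65 of the 77 core genes lay between 500 and 1500 FPKM.

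**Figure D1:**
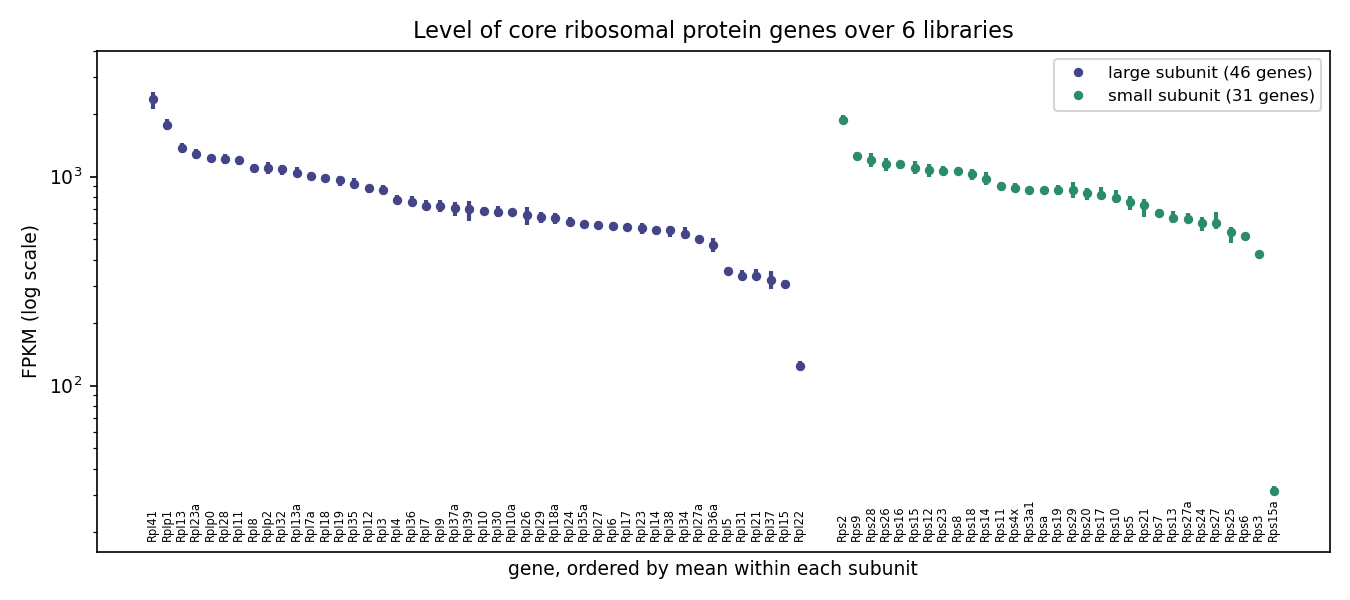
Mean level of each core gene over the 6 libraries (points, FPKM on a log axis), with vertical lines from the lowest to the highest library, ordered within the large subunit (46 genes) and the small subunit (31 genes). Most genes form a narrow band, with Rpl41 at 2339 FPKM at the top and Rps15a at 31.5 FPKM at the bottom.

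The ends of that order were few genes. Rpl41, which encodes the smallest ribosomal protein, was highest with 2552, 2114 and 2383 FPKM in aged and 2257, 2361 and 2365 FPKM in young libraries. Rps2, a protein of the messenger RNA entry channel, had 1889, 1823 and 1969 FPKM in aged and 1820.04, 1902 and 1849 FPKM in young libraries. The stalk gene Rplp1 followed with 1865, 1662 and 1888 FPKM in aged and 1698, 1725 and 1744 FPKM in young libraries. Aged 2 was the lowest of the 6 libraries for Rpl41 and Rplp1, and the ranges of the ages overlapped for all 3 genes.

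At the other end, Rpl22, an RNA-binding protein that the ribosome can do without, had 125, 118 and 124 FPKM in aged and 122, 131 and 123 FPKM in young libraries. Rps15a, a small subunit core gene, had 30.1, 31.35 and 32.0 FPKM in aged and 32.1, 30.0 and 33.2 FPKM in young libraries. Its near-identical pseudogenes were listed higher than the gene itself: Rps15a-ps4 averaged 85.7 ± 7.40 FPKM in aged and 78.7 ± 9.12 FPKM in young libraries, and Rps15a-ps6 77.1 ± 10.2 and 72.5 ± 6.96 FPKM (SD, n = 3 each). The transcript matched here to Rps15a has 5179 bases in GENCODE, but the length that the authors used for its FPKM is not known. The level of Rps15a is therefore uncertain, as is that of every member with processed copies that the authors' counting could have split.

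No ribosomal protein gene passed the test between the ages. Of the 84 members with a mean of at least 1 FPKM, 0 rose and 0 fell by limma on log2(FPKM + 1), at a Benjamini-Hochberg adjusted p under 0.05 over all 11912 genes tested, where 0.722% of genes passed (0.327% higher and 0.395% lower in aged libraries). At an unadjusted p under 0.05, 5 members were higher and 2 lower in aged libraries. All 5 were core genes, which is 6.49% of the 77, against a background of 6.30% of all genes for higher values, and both lower ones were paralog copies, against 5.55% of all genes. Without limma's variance trend, 0 members passed, where 0.0923% of all genes did, and 0 had an unadjusted p under 0.05, where 11.5% of all genes did. The SE of the log2 change of a core gene had a median of 0.039, so a change of a few percent in 1 gene could not be called.

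The small differences of the core genes lay mostly on 1 side. The log2 change, aged minus young, was above 0 for 42 of 46 large subunit genes (median 0.033) and for 26 of 31 small subunit genes (median 0.040), against 51.03% of all genes tested (median 0.0027). Summed FPKM of the large subunit was 38064, 35109 and 38095 in aged libraries, against 35697, 36401 and 36179 in young ones. For the small subunit the sums were 27944, 25414 and 27993 in aged libraries, against 26267, 26580.2 and 26212 in young ones. Both sums were highest in aged 1 and aged 3 and lowest in aged 2, so the ages overlapped. The means of the sums were 2.76% and 2.90% higher in aged libraries. In bulk RNA, a change in the number of cells of a kind and a change in RNA per cell cannot be told apart.

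The proportion between the subunits differed between the ages by less than its spread within them. The large subunit sum divided by the small subunit sum was 1.36, 1.38 and 1.36 in aged libraries and 1.36, 1.37 and 1.38 in young libraries, with means of 1.368 ± 0.0116 and 1.3696 ± 0.0106 (SD, n = 3 each).

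The difference between aged libraries was larger than that between the ages. Relative to the young mean, the median large subunit gene was 5.06% higher in aged 1, 2.64% lower in aged 2 (a difference of -2.64%) and 5.52% higher in aged 3, and the median small subunit gene differed by 5.58%, -2.40% and 5.63%. The young libraries stayed between -1.14% and 0.703% on the same measure. Aged 1 and aged 3 were both above all 3 young libraries in 57 of 77 core genes (74.0%), against 15.4% of all genes tested. Aged 2 was below the other 2 aged libraries in 73 of 77 core genes (94.8%, against 33.3% of all genes tested) and was the lowest of the 6 libraries in 46 of them (59.7%, against 16.4%). The coefficient of variation of a core gene had a median of 5.27% among aged and 1.91% among young libraries. For the 269 other genes with a mean over 200 FPKM these medians were 2.53% and 1.80%. Core genes had a median of about 3169 estimated reads per library, which alone gives a counting SD of about 1.78%.

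**Figure D2:**
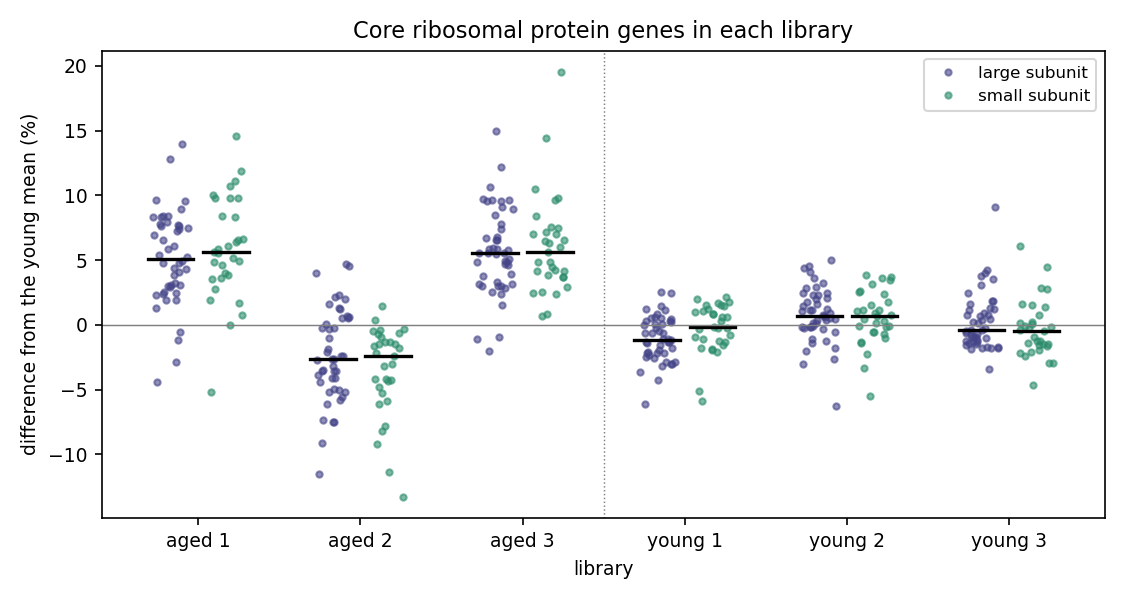
Difference of each core gene from its mean over the young libraries (percent) in each of the 6 libraries, with the large subunit left and the small subunit right within a library, and black lines at the medians. Genes of aged 1 and aged 3 lie mostly above 0 (medians 5.06% to 5.63%), whereas those of aged 2 lie mostly below it (medians -2.64% and -2.40%).

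Without aged 2, 3 members rose by limma at an adjusted p under 0.05, where 0.269% of all genes rose: Rps27 (0.0159), Rplp1 (0.0367) and Rps10 (0.0447). The median log2 change of the 84 members was then 0.074, against 0.035 with all 6 libraries, and 53 members were higher at an unadjusted p under 0.05, where 6.62% of all genes were. Without aged 1 the median was 0.016 with 0 members called, and without aged 3 it was 0.012 with 0 called. Leaving out a young library gave medians of 0.027 to 0.042 with 0 called. After quantile normalization of all 6 libraries, Rplp1 alone was called (limma adjusted p = 0.00496), where 0.336% of all genes were called higher, and the median of the members was 0.0036.

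The departure of aged 2 went with transcript length across the transcriptome. Among genes that are not members, the median log2 difference between aged 2 and the mean of aged 1 and aged 3 was -0.10 for 224 genes with transcripts under 600 bases, -0.082 for 553 genes from 600 to under 1000 bases and -0.030 for 2441 genes from 1000 to under 2000 bases. It was 0.019 for 3599 genes from 3000 to under 5000 bases and 0.051 for 2131 genes of 5000 or more. Members have a median transcript length of 830 bases, against 2960 bases for the other genes tested. In the same 3 shortest classes the members gave -0.16 (24 genes), -0.099 (35 genes) and -0.085 (19 genes). After removal of the length trend from each library, the median log2 change of the members was 0.012, with 52 of 84 above 0 and 0 called. The part of length in the difference between libraries was not tested.

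**Figure D3:**
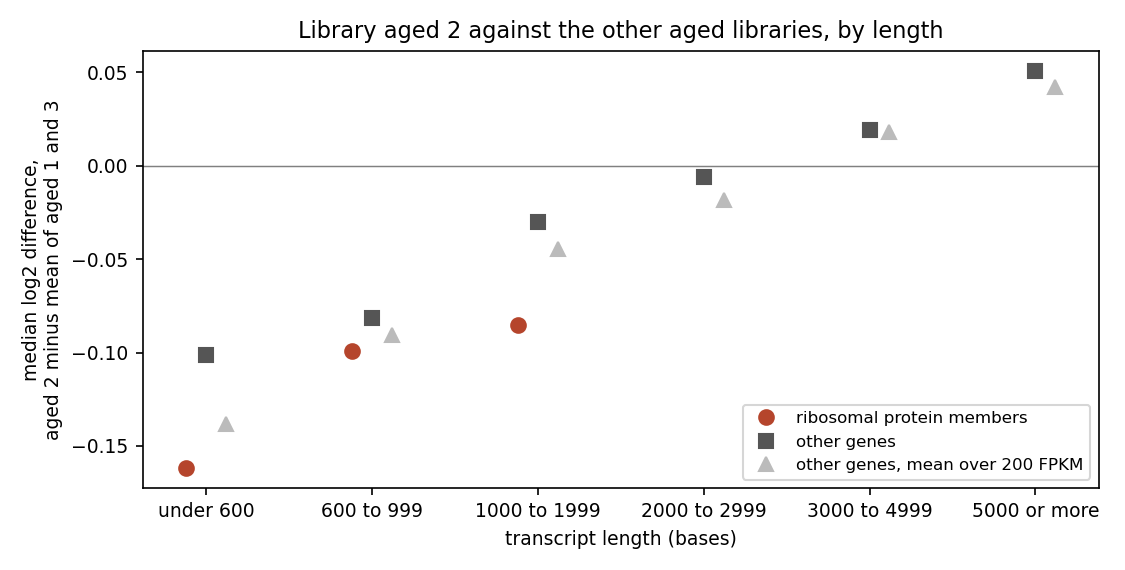
Median log2 difference between aged 2 and the mean of aged 1 and aged 3 by transcript length class (bases), for members (circles), all other genes tested (squares) and other genes with a mean over 200 FPKM (triangles), in classes of at least 10 genes. The values climb with length, from -0.16 for the shortest members to 0.051 for the longest other genes.

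Gene by gene, the largest core differences were in the small subunit and in a few large subunit proteins. Rps27, a zinc finger protein of the small subunit, had 648, 561 and 675 FPKM in aged libraries, against 561, 571 and 564 FPKM in young ones. The high values were those of aged 1 and aged 3, while aged 2 lay within the young range. On the log2 scale Rps27 was higher by 0.15 ± 0.06 (SE; limma adjusted p = 0.381). Rpl26, a large subunit protein also known to promote translation of p53, had 704, 634.9 and 718 FPKM in aged and 586, 606 and 682 FPKM in young libraries (log2 change 0.14 ± 0.06 SE, limma adjusted p = 0.447). Here young 3 lay above aged 2. Rps10, which sits on the head of the small subunit and is ubiquitinated when ribosomes collide, had 829, 766 and 864 FPKM in aged and 754, 745 and 767 FPKM in young libraries (log2 change 0.12 ± 0.04 SE, limma adjusted p = 0.310). Its ranges touched by less than 1 FPKM, with aged 2 just under young 3.

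Rpl13, a large subunit protein, had the smallest p of the members. It had 1442, 1386 and 1442 FPKM in aged libraries, against 1298, 1326 and 1348 FPKM in young ones, and all 3 aged libraries were above all 3 young ones. This came to 0.10 ± 0.03 (SE) on the log2 scale, at a limma adjusted p of 0.148. Rps27a, which is made as a fusion with ubiquitin and so also supplies that protein, had 670.4, 603 and 665 FPKM in aged and 599, 621 and 597 FPKM in young libraries. The ages overlapped for Rps27a through aged 2. Its limma adjusted p was 0.440, with a log2 change of 0.09 ± 0.04 (SE).

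The ages did not overlap in 6 of 77 core genes (7.79%), all higher in aged libraries, where 8.98% of all genes were higher without overlap. By subunit this was 13.0% of the 46 large and 0% of the 31 small subunit genes. Lower without overlap were 0 core genes, against 8.58% of all genes. These 6 were Rpl3, Rpl4, Rpl7, Rpl8, Rpl13 and Rpl15, all of the large subunit, and Rpl3, Rpl4, Rpl8 and Rpl15 were named after their values were seen. Rpl15 had 316, 304 and 322 FPKM in aged and 297, 298 and 300.4 FPKM in young libraries. Rpl7 had 738, 719 and 771 FPKM in aged and 694, 702 and 718 FPKM in young libraries. Both were separated by little, with limma adjusted p of 0.380 and 0.381.

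Of the 77 core genes, 9 had a log2 change below 0. Rpl32 was the large subunit gene with the lowest change, with 1050.3, 1018 and 1130.4 FPKM in aged and 1126, 1079 and 1092 FPKM in young libraries (log2 change -0.04 ± 0.04 SE, limma adjusted p = 0.727). Its ages overlapped fully. Rps15a was the small subunit gene with the lowest change (-0.03 ± 0.05 SE, limma adjusted p = 0.900). Summed with its pseudogene copies, Rps15a turned to the other direction, with 193.96 FPKM in aged and 182.9 FPKM in young libraries (1.06-fold). Rpl31, another of the 9 with a log2 change of only -0.0033, had 651 FPKM in aged and 621.5 FPKM in young libraries with its copy Rpl31-ps12 (1.05-fold). Both sums overlapped between the ages, and aged 2 was the lowest library for that of Rpl31.

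**Figure D4:**
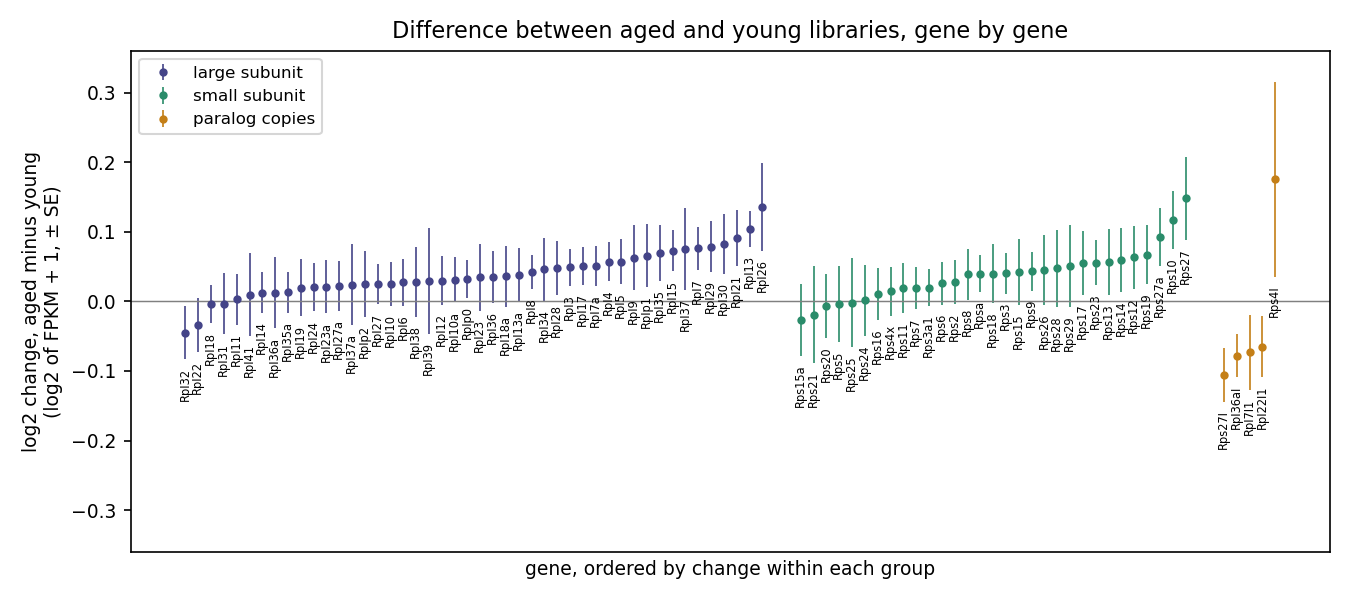
Log2 change between the ages, aged minus young, on the scale of log2(FPKM + 1) with its SE for each member that passed the filter, ordered within the large subunit, the small subunit and the paralog copies. Rpl37rt and Rps19bp1 are left out of the plot. Most core genes lie a little above 0 and none passed the test, while 4 of the 5 paralog copies plotted lie below 0.

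Further members were described for their known roles. Rpl5 and Rpl11 bind the 5S rRNA and, outside the ribosome, can block Mdm2, the ubiquitin ligase of p53. Rpl5 had 363, 348 and 369 FPKM in aged and 341, 342 and 354 FPKM in young libraries. Rpl11 had 1231, 1134 and 1234 FPKM in aged and 1183, 1230.3 and 1176 FPKM in young libraries. Their log2 changes were 0.06 ± 0.03 and 0.0032 ± 0.037 (SE), with limma adjusted p of 0.550 and 0.986. Both overlapped between the ages. Rplp0, the base of the stalk and a common reference gene, had 1223, 1208 and 1274 FPKM in aged and 1225, 1211 and 1185 FPKM in young libraries (limma adjusted p = 0.718). Rps6, which the S6 kinases phosphorylate downstream of mTOR, had 526, 515 and 536 FPKM in aged and 509.9, 535 and 505 FPKM in young libraries (limma adjusted p = 0.814). The means of Rplp0 and Rps6 were 2.30% and 1.80% higher in aged libraries, and the ages overlapped for both.

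The other stalk protein, Rplp2, had 1176, 1029 and 1134 FPKM in aged and 1057, 1119 and 1101 FPKM in young libraries. Rpl10, which is among the last proteins to join the large subunit, had 697, 662 and 718 FPKM in aged and 680.3, 679 and 681 FPKM in young libraries. Rpl23, which like Rpl5 and Rpl11 can bind Mdm2, had 603, 530.4 and 587 FPKM in aged and 547, 551 and 579 FPKM in young libraries. In all 3 genes aged 1 and aged 3 were the highest libraries and aged 2 the lowest (limma adjusted p 0.832 to 0.897).

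In the small subunit, Rps3, a protein of the messenger RNA entry site, had 433, 419.8 and 437 FPKM in aged and 427, 419.3 and 408 FPKM in young libraries. Rps19, which is mutated in Diamond-Blackfan anaemia, had 910.4, 822 and 911 FPKM in aged and 857, 848 and 816 FPKM in young libraries. Rpsa, also known as the laminin receptor, had 893, 847 and 887 FPKM in aged and 854, 850.6 and 849.7 FPKM in young libraries. The ages overlapped for all 3 through aged 2, with limma adjusted p of 0.613 to 0.666.

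Of the 10 paralog copies, 4 were close to absent. Rpl3l, a muscle form of Rpl3, was above 0 in aged 3 and young 1 only, at 0.18 and 0.17 FPKM. Rpl10l and Rpl39l, known from testis, reached 0.17 FPKM in aged 3 and 0.24 FPKM in aged 2 and were listed at 0 elsewhere. Rpl32l reached 0.08 FPKM in aged 2 and was listed at 0 elsewhere. At this depth such values rest on about 1 read in Rpl3l, Rpl10l and Rpl39l, and these 4 were not compared between the ages.

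Without Rpl37rt, described below, the paralog copies summed to 1.35, 1.42 and 1.33% of the core sum in aged libraries, against 1.49, 1.501 and 1.48% in young ones, and the ages did not overlap. Of the 6 copies that passed the filter, 5 had a log2 change below 0, 0 were called, and the median was -0.076. Rps27l, a copy of Rps27 that p53 induces in human cells, had 365, 339.7 and 338 FPKM in aged and 362, 375 and 385 FPKM in young libraries. Only aged 1 reached the young range. Its log2 difference was -0.11 ± 0.04 (SE), for which limma gave an adjusted p of 0.316. Rpl36al, a copy of Rpl36a, had 296, 285 and 302 FPKM in aged and 309, 316 and 306 FPKM in young libraries. All 3 aged values were below all 3 young ones, where 8.58% of all genes were lower without overlap, and the limma adjusted p was 0.366 (log2 change -0.08 ± 0.03 SE).

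Rpl22l1, which can replace Rpl22 in the ribosome, had 174, 174.9 and 176 FPKM in aged and 188, 191 and 171 FPKM in young libraries, with young 3 below all aged values. Rpl7l1, which takes part in ribosome assembly, had 52.2, 51.3 and 58.7 FPKM in aged and 57.7, 56.02 and 56.9 FPKM in young libraries, with aged 3 above all young values. Rps4l, described in the files as ribosomal protein S4, Y-linked 2, was higher by 0.18 ± 0.14 (SE) on the log2 scale with means of 7.02 and 6.14 FPKM in aged and young libraries. For these 3 the limma adjusted p ran from 0.642 to 0.702.

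Rpl37rt, a near-identical copy of Rpl37, varied most between libraries. It had 49.4, 0.02 and 85.4 FPKM in aged and 28.4, 70.3 and 33.96 FPKM in young libraries, while Rpl37 itself had 353, 324 and 304 FPKM in aged and 318, 290.3 and 321 FPKM in young ones. Aged 3 and young 2 had the highest Rpl37rt and, within their ages, the lowest Rpl37. Summed, the pair had 402, 324 and 389 FPKM in aged and 346, 361 and 355 FPKM in young libraries. Its log2 change of -1.35 ± 1.41 (SE) rests on aged 2 and was 0.66 without it (limma adjusted p = 0.784 and 0.542). Rps19bp1, the member outside the ribosome, had 54.9, 43.9 and 49.3 FPKM in aged and 53.3, 45.1 and 42.7 FPKM in young libraries (limma adjusted p = 0.851).

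A ratio within a library does not depend on the scaling between libraries, so 4 paralog copies were set against the core gene they resemble. Rps27l over Rps27 was 0.564, 0.605 and 0.5002 in aged libraries, against 0.646, 0.657 and 0.682 in young ones. Every aged value was below every young value, with a log2 difference of -0.25 ± 0.08 (SE) and an exact two-sided permutation p of 0.1, adjusted over the 4 ratios 0.133. Both transcripts are short (499 and 445.5 bases), whereas Rpl7l1 is longer than Rpl7 (2606 and 1163 bases), and the part of length in the ratios was not tested. Rpl36al over Rpl36a was 0.586, 0.655 and 0.623 in aged and 0.666, 0.657 and 0.6602 in young libraries. Rpl7l1 over Rpl7 was 0.0708, 0.0714 and 0.0761 in aged and 0.0832, 0.0798 and 0.0793 in young libraries. These 2 ratios were also lower in all aged libraries (log2 differences -0.091 ± 0.047 and -0.15 ± 0.04 SE, both exact permutation p = 0.1, adjusted 0.133), although for Rpl36al over Rpl36a aged 2 lay just under young 2. The log2 difference of Rpl36al over Rpl36a was -0.049 without aged 1, and without aged 2 it was -0.13. With 3 libraries against 3, 0.1 is the smallest p that the test can give. Rpl22l1 over Rpl22 overlapped between the ages, at 1.40, 1.48 and 1.42 in aged and 1.54, 1.46 and 1.39 in young libraries (exact permutation p = 0.7, adjusted 0.7). Rps4l over Rps4x was added after the values were seen and was not tested. It was 0.0074, 0.00961 and 0.0069 in aged and 0.00539, 0.00765 and 0.00802 in young libraries, with a log2 difference of 0.19 and overlapping ages.

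**Figure D5:**
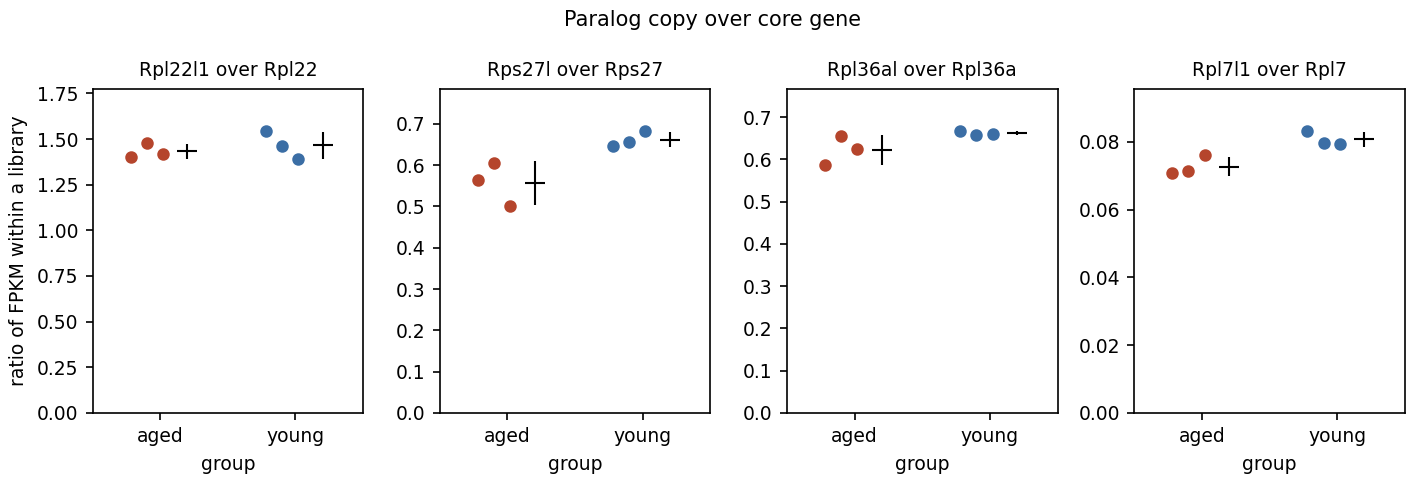
FPKM of a paralog copy divided by that of its core gene in each library (points), with aged libraries left and young libraries right and the mean with its SD beside them (n = 3 each). Aged libraries lie below young ones for Rps27l over Rps27, Rpl36al over Rpl36a and Rpl7l1 over Rpl7 and overlap them for Rpl22l1 over Rpl22.

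Genes that act with the ribosomal proteins were mostly close between the ages. Fau, which encodes a ribosomal protein fused to a ubiquitin-like protein, averaged 703 ± 63.9 FPKM in aged and 670.1 ± 8.01 FPKM in young libraries (SD, n = 3 each; limma adjusted p = 0.738), and aged 2 was its lowest library. Of 19 other translation genes with oligopyrimidine tracts, 0 were called and the median log2 change was 0.0095. Among them Gnb2l1, the small subunit scaffold now named Rack1, had 659, 640.3 and 639 FPKM in aged and 614, 629 and 607 FPKM in young libraries, without overlap and with a limma adjusted p of 0.348. Aged 2 was not its lowest library.

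Of 41 nucleolar assembly factors 0 were called, with a median log2 change of -0.0074, and 18 were above 0. Gar1, a protein of the snoRNPs that place pseudouridine in rRNA, averaged 37.1 ± 1.42 FPKM in aged and 42.7 ± 4.72 FPKM in young libraries (SD, n = 3 each, limma adjusted p = 0.358). Of 15 genes of RNA polymerase I and its factors, which transcribe the rRNA genes, 0 were called (median -0.012). Polr1c, a subunit shared with RNA polymerase III, averaged 44.7 ± 3.23 FPKM in aged and 39.04 ± 1.93 FPKM in young libraries (limma adjusted p = 0.268). Of 10 chaperones and importins of ribosomal proteins 0 were called (median 0.031). Bccip, which shields Rpl23 before assembly, averaged 46.8 ± 4.15 FPKM in aged and 41.6 ± 2.21 FPKM in young libraries (SD, n = 3 each, limma adjusted p = 0.394). Of 9 genes of the 5S particle and p53 surveillance, a list that also held Myc and Mycn, 0 were called (median -0.0013). In this list Brix1 averaged 19.8 ± 0.911 and 18.1 ± 0.92002 FPKM in aged and young libraries (SD, n = 3 each, limma adjusted p = 0.503). Of 14 genes of ribosome quality control 0 were called (median -0.021). Edf1, which binds collided ribosomes, had 191, 159 and 170.5 FPKM in aged and 153, 151 and 162 FPKM in young libraries (limma adjusted p = 0.379), and aged 2 lay under young 3.

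Among 12 S6 kinases and genes of the Larp and Eif4ebp families, 0 were called (median 0.030). Eif4ebp1, a translation repressor that mTOR inactivates, had 63.95, 64.8 and 69.4 FPKM in aged and 58.4, 53.4 and 57.4 FPKM in young libraries. The ages did not overlap, and the limma adjusted p was 0.102 with a log2 change of 0.22. Larp1, the repressor named above, averaged 35.8 ± 1.36 FPKM in aged and 37.7 ± 1.47 FPKM in young libraries (SD, n = 3 each, limma adjusted p = 0.625). Of 8 host genes of small nucleolar RNAs, which also carry pyrimidine tracts, 1 was called. Snhg5 had 31.1, 31.7 and 30.4 FPKM in aged and 24.98, 22.7 and 25.9 FPKM in young libraries, a log2 change of 0.33 with a limma adjusted p of 0.0458. Leaving out any 1 of the 6 libraries ended that call (limma adjusted p 0.0733 to 0.153), with log2 changes of 0.28 to 0.37, and it was lost in 7 of the 13 other settings. The list had a median of -0.023.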

How the data were processed

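Total RNA of 6 libraries (3 aged, 3 young) had been depleted of rRNA and sequenced. The authors deposited 1 table of FPKM values per library, with 2 decimals, per the file headers. The submitters' processing notes list TopHat, Cuffdiff and the mm10 build. The annotation, strand setting and scaling between libraries are not given in the sources used here. Other scalings, filters, pseudocounts, limma settings and left-out libraries were tried.

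Genes were matched by Entrez identifier to RefSeq (GRCm38.p6), and transcript lengths came from GENCODE M21 transcripts that carry the same accession (16661 of 17006 genes). Lengths may differ from the authors'. Symbols turned into dates or left blank (32) were read from RefSeq. Depth was estimated from the steps of low values in genes of 600 to 1500 bases with 1 transcript. Between 3.5 and 10.5 estimated reads, 55.1 to 58.4% of values lay within 0.15 of a whole number in the 6 libraries.

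Genes averaging 1 FPKM or more (11912) entered a two-sided test of log2(FPKM + 1) in limma 3.58.1 (R 4.3.3; trended eBayes), fitted to all 6 libraries without covariates. Adjusted p-values are those of Benjamini and Hochberg, called under 0.05. The scale understates changes of low genes. FPKM are not counts, so no count model was used. The procedure was tested on simulated data. It recovered 24% of 1.2-fold, 64% of 1.5-fold and 94% of 2-fold changes, and 14 of its 151 calls were false. The same added spread was simulated for both ages, whereas core genes spread more among aged libraries. Ratios were tested with scipy 1.17.1 by exact permutation. Figures were drawn with matplotlib 3.10.9.

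Named genes were drawn from the called members, the 6 largest changes each way, the highest and lowest levels, all paralog copies, a fixed set of genes of known role, and of each other list the called genes or 1 to 3 with the smallest p, and not all are printed. Members and lists were chosen with earlier results of these data known, Rpl32l was added to the paralog copies after the files were seen, and the removal of length trends, the summing of copies and the ratio of Rps4l were added after seeing the data.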

Additional observations from a re-analysis of the deposited data

How the results depend on the processing

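With 19 other settings, members called numbered 0 except after quantile normalization (1, Rplp1, where 0.336% of all genes were called higher) and on leaving out each library in turn (0 to 3, the 3 without aged 2). Genes called over all tested, 86 here, numbered 22 in the fit that had a replicate block, 11 in the untrended one and 39 to 63 on leaving out each library. The deviations of same-numbered aged and young libraries had correlations of 0.0080, -0.072 and 0.11 across genes. Across the members the same pairs gave -0.69, -0.91 and -0.60, and pairs of unlike number gave -0.73 to 0.92. The labels give only a number, and a pairing of libraries was not tested. The block changed no member's call. Median log2 changes over all these settings ran from 0.00646 to 0.073 for the large subunit, from 0.012 to 0.080 for the small subunit and from -0.10 to -0.031 for paralog copies, and summing genes with their copies gave 0.035 and 0.040 for the subunits. Of 59 named genes, 14 uncalled ones changed sign in some setting. The lower ratios of Rps27l, Rpl36al and Rpl7l1 to their core genes kept their direction in all 7 alternatives, that of Rpl36al between -0.13 and -0.049 on the log2 scale. Leaving out a library could not reverse them, because every aged value was below every young value, so the kept direction adds no support. Rpl39l over Rpl39 was not computed because Rpl39l was listed at 0 in 5 libraries. Pooled over both ages, the coefficient of variation of a core gene within an age had a median of 4.03%, against a counting SD of about 1.78% per library. The median was 5.27% among aged libraries and 1.91%, close to the counting SD, among young ones.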
